A study of Mus musculus with 2 samples.

Results

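Mir451a, Mir144 and Mir486 are miRNA genes known from red blood cells. They were chosen by gene ID, by matching the counted genes to their GENCODE symbols, and all 3 were found among the 1973 genes of the count tables. For Mir486 the strand opposite to the gene was read as well, because a hairpin named Mir3107 (mir-486b in RefSeq) lies there. MicroRNA sequencing was made from hearts of Mus musculus embryos of strain B6NCrl at day 11.5, healthy, pooled male and female, with no treatment. There was 1 group with 2 libraries, replicates 2 and 1, from separate tissue samples. Hearts of 109 embryos were pooled for replicate 1, while the sources used here give no number of embryos for replicate 2. Whether the pools shared litters is not stated, so the spread between them may be partly technical. The labels name whole heart, so blood inside the chambers may be part of the tissue.

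Red cells of this stage are mostly primitive erythroid cells that come from the yolk sac and circulate through the heart. In the erythroid lineage the transcription factor GATA1 switches on the locus that gives miR-144 and miR-451. miR-451 is the known case of a mammalian miRNA matured without Dicer: its short hairpin is cut by the Argonaute protein Ago2 itself. Mice without miR-451 form red cells poorly under stress, in part through its target Ywhaz, a 14-3-3 signalling protein. miR-144 comes from the same transcript and is matured by Dicer in the usual way. miR-486 lies in Ank1, which codes for the ankyrin of the red cell membrane skeleton and for a short muscle form. It is abundant in red cells and also in skeletal and heart muscle.

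Sequences are shown for Mir451a and Mir144, because their mature miRNAs are placed differently in the hairpin, and for the strand opposite to Mir451a. They are from RefSeq on GRCm38.p6, 5′ to 3′, with the mature miRNAs in capitals. Of the 3 genes, 2 matched the RefSeq miRNA table by symbol, and Mir486 is named only.

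Mir451a hairpin, plus strand: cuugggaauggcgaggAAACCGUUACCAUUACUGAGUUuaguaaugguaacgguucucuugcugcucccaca

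Mir144 hairpin, plus strand: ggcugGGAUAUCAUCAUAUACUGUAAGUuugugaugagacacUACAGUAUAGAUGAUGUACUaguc

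Mir451b hairpin, minus strand: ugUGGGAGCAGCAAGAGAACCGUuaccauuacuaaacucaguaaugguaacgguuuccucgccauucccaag

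In the hairpin of Mir451a the mature miR-451a takes up bases 17 to 38. The predicted lowest-energy fold (RNAfold) of this hairpin has an unbroken stem of 17 base pairs and a loop of 4 bases, at bases 35 to 38. miR-451a thus covers the 5′ side of the stem and all 4 bases of the loop. In the fold of Mir144 the unbroken stem next to the loop has 4 base pairs. Its loop has 6 bases, and neither miR-144-5p, at bases 6 to 28, nor miR-144-3p, at bases 43 to 62, takes in any of them. The predicted folding energy was -43.3 kcal per mol for Mir451a and -28.6 kcal per mol for Mir144.

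The mature forms follow with their seeds, bases 2 to 8, in capitals. The seed is the part that pairs with target mRNAs.

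miR-451a: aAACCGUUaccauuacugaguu

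miR-144-3p: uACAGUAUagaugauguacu

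miR-144-5p: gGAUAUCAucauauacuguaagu

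miR-101a-3p: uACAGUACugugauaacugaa

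None of the miR-451a, miR-144-3p and miR-144-5p seeds recurred among the other sequences of the 1738 mature miRNAs in the table. miR-144-3p and miR-101a-3p share bases 2 to 7 and differ at base 8, which is why the second is shown. Mir101a had 337 counts or 167 CPM in replicate 2 and 2820 counts or 153 CPM in replicate 1, close to the level of Mir144 given below. CPM here are reads on a gene's own strand, scaled so that such reads on all miRNA genes of a library sum to 1000000. Each mature sequence of Mir451a and Mir144 matched exactly 1 of the 1005 hairpins in the table on its own strand. A gene's count adds its 5p and 3p reads, so the arms of Mir144 could not be read apart.

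Mir451a (ENSMUSG00000070065.1) lies on the plus strand of chromosome 11, from 78073170 to 78073241 on GRCm38, the build also called mm10. Mir144 (ENSMUSG00000065401.1) lies 99 bases before it on the same strand, from 78073005 to 78073070. Neither overlaps an exon of a protein-coding gene. The nearest, Eral1, is on the minus strand with its 3′ end 134 bases beyond Mir451a. Mir486 (ENSMUSG00000070084.3) lies on the plus strand of chromosome 8, from 23142555 to 23142682, in an intron of Ank1. Mir3107 lies within these bounds on the minus strand, from 23142573 to 23142662, where the antisense transcript Gm15816 runs as well. Within 10 kb of each gene, GENCODE M21 lists no other miRNA genes than these and Mir451b, which covers the same bases as Mir451a on the minus strand.

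The libraries differed in depth. Summed over the miRNA genes, replicate 2 held 2017294 reads on the genes' own strand, against 18467499 for replicate 1, which was 9.15 times deeper, so values of replicate 1 have less counting error. Reads that mapped to several places made up 33.2% and 33.8% of mapped reads, and unmapped reads 27.5% and 38.4% of all reads, in replicates 2 and 1. The tables hold miRNA genes only, so haemoglobin and other protein-coding red cell markers could not be used to check the erythroid label.

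In both libraries Mir451a was the highest of the 3 genes and Mir486 the lowest, with Mir144 between them. Mir451a had 1673 counts or 829 CPM in replicate 2 (exact 95% Clopper-Pearson interval 790.1 to 870.0 CPM). In replicate 1 it had 15421 counts or 835 CPM, with an interval of 822 to 848 CPM. Its mean was 832 ± 4.03 CPM (SD, n = 2), and it ranked 95 and 94 among all counted genes. The intervals overlapped. They allow for counting error only, because amplified reads with no molecular identifier are not separate molecules.

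Mir144 had 311 counts or 154 CPM in replicate 2 and 2954 counts or 160 CPM in replicate 1. The intervals, 138 to 172 CPM and 154 to 166 CPM, overlapped. Its mean was 157 ± 4.09 CPM (SD, n = 2), at ranks 172 and 174. For both genes of the chromosome 11 locus, then, the difference between the heart pools lay within counting error on the CPM scale.

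Mir486 had 106 counts or 52.5 CPM in replicate 2 (interval 43.0 to 63.6 CPM), against 1653 counts or 89.5 CPM in replicate 1 (interval 85.2 to 93.9 CPM). These intervals did not overlap. The mean was 71.0 ± 26 CPM (SD, n = 2), with ranks of 222 and 206. The SD was 36.8% of the mean for Mir486, 2.61% for Mir144 and 0.485% for Mir451a. Together the 3 genes took 0.104% of the own-strand reads of replicate 2 and 0.108% of those of replicate 1. Of that sum Mir451a made up 80.0% in replicate 2 and 77.0% in replicate 1, Mir144 14.9% and 14.7%, and Mir486 5.07% and 8.25%. In whole-tissue RNA, fewer cells of a type and less RNA per cell cannot be told apart.

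**Figure D1:**
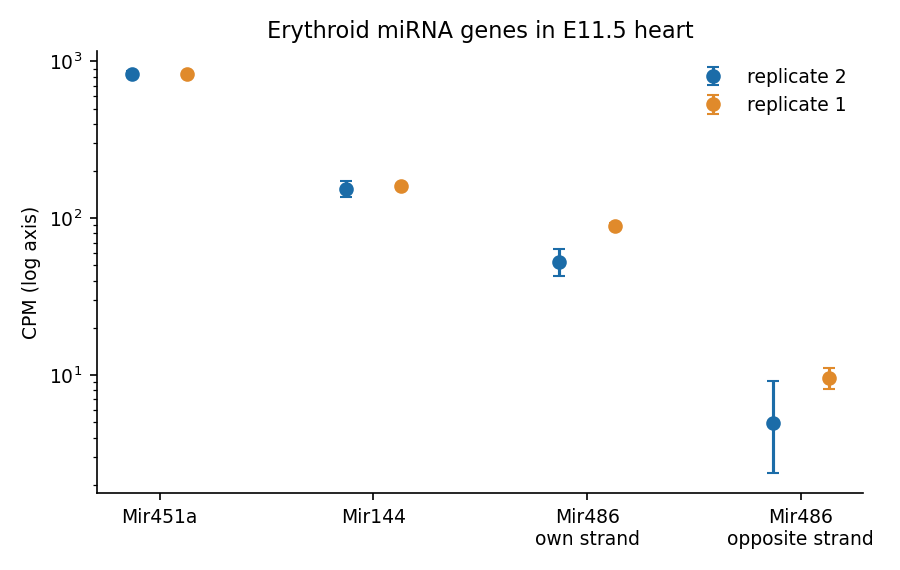
CPM (log axis) of Mir451a, Mir144, Mir486 and the strand opposite to Mir486 in replicates 2 and 1, with points for the value in each library and bars for the exact 95% Clopper-Pearson interval. The libraries lie together at Mir451a (829 and 835 CPM) and Mir144 (154 and 160 CPM), and apart at Mir486 (52.5 and 89.5 CPM).

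The strand opposite to each gene was read next, since both loci carry an annotated hairpin there. Opposite to Mir451a, where Mir451b lies, there were 0 counts in both libraries. With 1673 and 15421 reads on the locus in replicates 2 and 1, a count of 0 allows an opposite-strand share of up to 0.179% and 0.0195%. The shown hairpins of Mir451a and Mir451b are reverse complements of each other, and 16 bases in a row of miR-451a also stand in the Mir451b hairpin. The 16 bases are AACCGUUACCAUUACU. Mir144 had 0 opposite-strand counts of 311 and 2954 as well, which allows up to 0.965% and 0.102%.

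Mir486 differed in this from both genes of the other locus. Its opposite strand, where Mir3107 lies, held 10 counts or 4.96 CPM in replicate 2 and 176 counts or 9.53 CPM in replicate 1. These were 8.62% of the 116 both-strand counts in replicate 2 (exact interval 4.21 to 15.3%) and 9.62% of 1829 in replicate 1 (interval 8.31 to 11.1%). The mean share was 9.12% ± 0.71 (SD, n = 2), so the share differed between libraries by less than its counting error. A gene was taken as detected where it reached 1 CPM in each library, which 419 genes did. Of these, 395 had 0 opposite-strand counts in replicate 2 and 353 in replicate 1. In both libraries 5 of the 419 had a larger opposite-strand share than Mir486. Reads with several possible places in the genome are kept apart in these tables and count for no gene. The hairpins on the 2 strands of this locus are known to give near-identical mature sequences, so the counts of Mir486 are uncertain. How many such reads were lost was not tested.

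**Figure D2:**
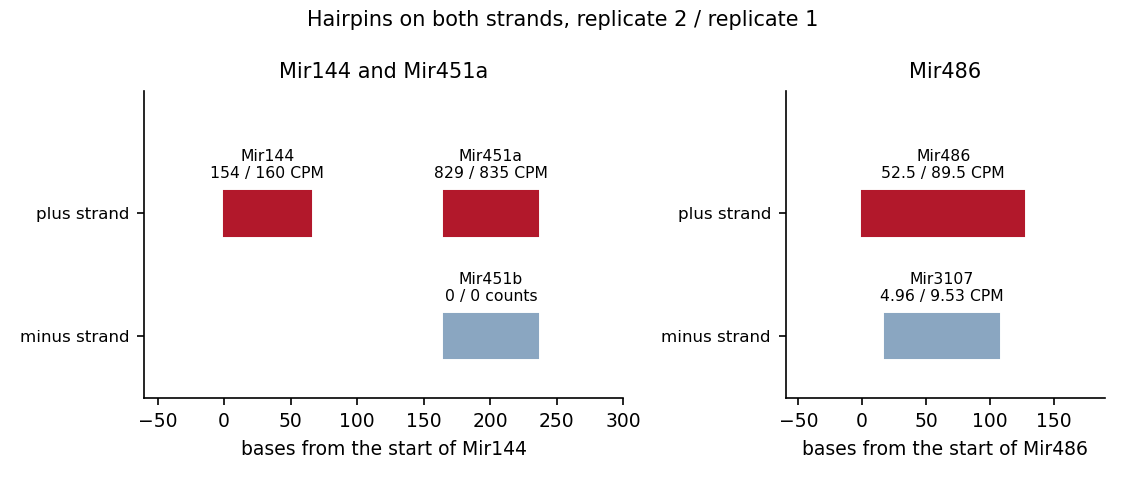
Map to scale of the annotated hairpins by strand, in bases from the start of Mir144 (left) and of Mir486 (right), with the level in replicate 2 and replicate 1 written over each box. Red boxes are the counted genes and blue boxes the annotated hairpins on the strand opposite to them. The minus strand holds 0 counts at Mir451a and 4.96 and 9.53 CPM at Mir486.

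Fixed ratios within a library do not depend on its depth, and they put the 3 genes in order. To be called, a ratio needed the same direction in both libraries, exact intervals that left out equality in each, and a mean log2 ratio above its SD. Mir451a exceeded Mir144 by 5.38 times in replicate 2 and 5.22 times in replicate 1, with a mean log2 ratio of 2.41 ± 0.03 (SD, n = 2). Mir451a exceeded Mir486 by 15.8 times in replicate 2 and 9.33 times in replicate 1 (3.60 ± 0.54). Mir144 exceeded Mir486 by 2.93 and 1.79 times (1.20 ± 0.51). The opposite strand of Mir486 held 0.0943 and 0.106 times the counts of its own strand (-3.32 ± 0.12). All 4 ratios met this rule, so the counts of each gene were separated from those of its neighbour in the order. The 3 ratios that involve Mir486 rest on its uncertain counts. Reads lost to the near-identical sequences on its 2 strands could change them, which was not tested.

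Measured against counting error, the libraries shared the ratio within the chromosome 11 locus but not the ratios to Mir486. For Mir451a over Mir144 the intervals of the log2 ratio, 2.25 to 2.61 in replicate 2 and 2.33 to 2.44 in replicate 1, overlapped. For Mir451a over Mir486 they did not, at 3.70 to 4.28 and 3.15 to 3.30. For Mir144 over Mir486 they were 1.23 to 1.88 and 0.75 to 0.93, also apart. miRNAs can differ in how well they are ligated and amplified, so these ratios compare counts, not molecules.

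**Figure D3:**
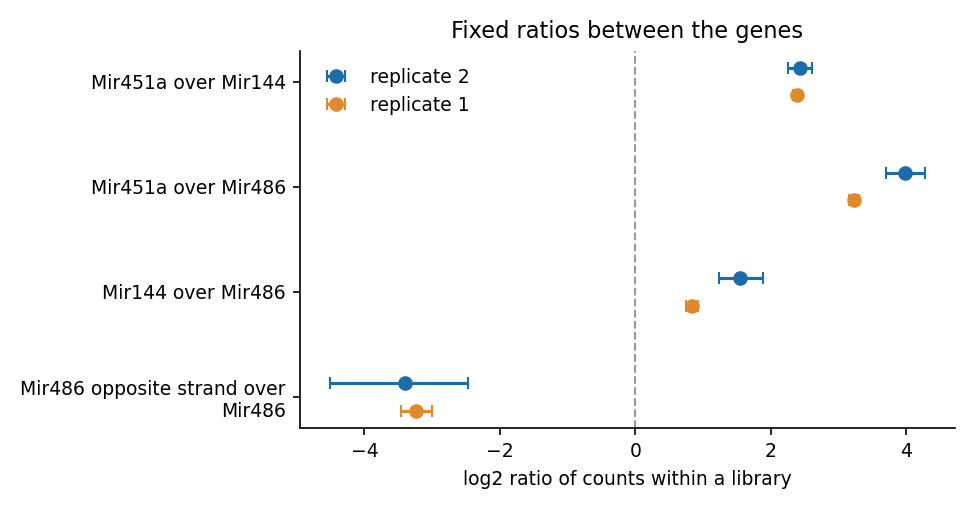
Within-library log2 ratios of counts for 4 fixed pairs in replicates 2 and 1, with exact 95% intervals, and equality at the dashed line. The libraries overlap for Mir451a over Mir144 (2.43 and 2.38) and for the strands of Mir486 (-3.41 and -3.23), and lie apart for Mir451a over Mir486 (3.98 and 3.22).

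The libraries were then compared gene by gene over the 419 detected genes, with a two-sided exact binomial test on the counts and Benjamini-Hochberg adjustment over all of them. That test sets 2 libraries against each other, not conditions, and allows for counting error alone. A call needed an adjusted p of 0.05 and a 2-fold ratio, which 2.63% of the detected genes met. None of the 3 genes did. The share of detected genes called lower in replicate 2 was 1.91%, and 29.4% passed the adjusted p in either direction when no fold was asked for. At an unadjusted p under 0.05, 1 of the 3 passed, Mir486, as did 146 of the 419 detected genes (34.8%). In the exact test of edgeR, run with 1 dispersion for all genes, 0 of the 3 passed at either an adjusted or an unadjusted p of 0.05. The dispersion was estimated from the same 2 libraries taken as 1 group, so the differences under test also enlarge it. That test called 4 of the 419 genes (0.955%) with the 2-fold minimum, and 12 (2.86%) had an unadjusted p under 0.05.

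Mir451a was 0.993 times as abundant in replicate 2 as in replicate 1 (exact interval 0.944 to 1.04, adjusted p = 0.937, exact binomial). For Mir144 the ratio was 0.964 (interval 0.855 to 1.08, adjusted p = 0.773, exact binomial). On the CPM scale, these intervals leave room for a difference of a few percent at Mir451a and of a wider range at Mir144. The median detected gene differed 1.11-fold between the libraries.

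Mir486 had a ratio of 0.587, short of 2-fold, with an exact interval of 0.478 to 0.715 (adjusted p = 9.06e-08, exact binomial), so it was lower in replicate 2 by the adjusted p alone. Without the fold minimum, 15.0% of detected genes were lower in replicate 2 at this adjusted p, so passing it is not rare. With edgeR's exact test, which allows for the spread over genes (a biological coefficient of variation of 17.9%), Mir486 did not pass (p = 0.0589, adjusted p = 1). That spread was taken from the same 2 libraries and holds the differences under test, so not passing shows little. Over the other alternatives, all exact binomial tests, the adjusted p of Mir486 ran from 1.01e-08 to 2.00e-07. Its ratio was number 22 from the lowest among the 419 detected genes, against number 214 for Mir451a and 177 for Mir144. The opposite strand of Mir486, on 10 counts in replicate 2, had a ratio of 0.520 (exact interval 0.245 to 0.979). The strands give near-identical mature sequences, so this ratio is not a separate measure.

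miRNAs of other tissues also differed between the libraries, and they are described here, with no test, from 2 lists chosen after the values were seen. All 7 genes of an epithelial list had a ratio of replicate 2 over replicate 1 below 1, from 0.512 for Mir141 to 0.885 for Mir203, where 224 of the 419 detected genes did. They summed to 1488 CPM in replicate 2, against 2144 CPM in replicate 1. Mir200c, which keeps cells epithelial, had 204 CPM in replicate 2 against 358 CPM in replicate 1. Of a list of 9 liver, gut and pancreas miRNAs 8 were detected. Of these 8, 5 had a ratio below 1, against 224 of the 419 detected genes. The 9 summed to 601 CPM in replicate 2, against 926 CPM in replicate 1. Mir122, the main liver miRNA, had 160 CPM in replicate 2 against 395 CPM in replicate 1, a ratio of 0.405. Mir375, of endocrine and gut cells, had 48.6 CPM in replicate 2 against 112 CPM in replicate 1, a ratio of 0.432. These 2 had the lowest ratios of the list. Mir192, Mir216b and Mir215 had ratios of 0.752, 0.808 and 0.932. Mir194-1, Mir194-2 and Mir217 went the other way, at 1.05, 1.15 and 1.33. The part of such cells in the lower Mir486 was not tested.

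**Figure D4:**
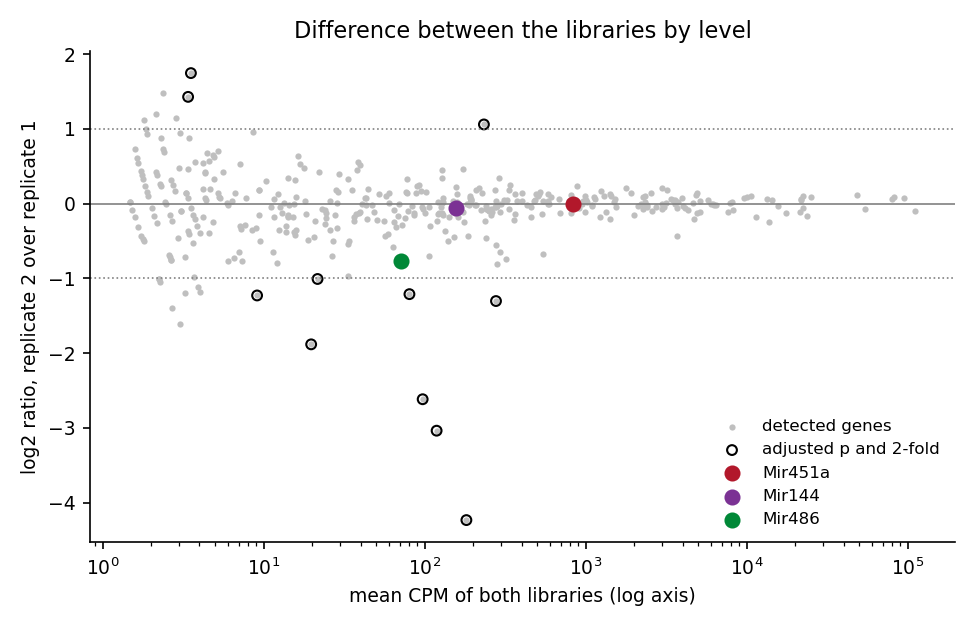
Log2 ratio of replicate 2 over replicate 1 against mean CPM (log axis) for the 419 detected genes, with the 3 genes in colour, called genes ringed and 2-fold at the dotted lines. Mir451a (-0.01) and Mir144 (-0.05) lie at the centre of the cloud and Mir486 (-0.77) below it, inside the 2-fold line.

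Marker lists of the tissues that share these miRNAs were read beside them. In the muscle list 8 of 9 genes are counted, and together they held 6.32% of the own-strand reads of replicate 2 and 5.85% of those of replicate 1. Of 7 detected, 4 were higher in replicate 2 at the adjusted p with no fold minimum (Mir208a, Mir208b, Mir499 and Mir133a-1), against 14.3% of detected genes. Mir206, the skeletal muscle miRNA, was lower in replicate 2 by this rule, as were 15.0% of detected genes. It had 48.6 CPM in replicate 2 against 65.6 CPM in replicate 1. Mir133b and Mir1a-1 did not pass, and Mir133a-2, with 0 and 23 counts, was not detected. Mir133a-1 rests on 11 counts in replicate 2, and the mature sequences of Mir1a-1, Mir133a-1 and Mir133a-2 occur at more than 1 locus, so these counts are uncertain. Mir1a-2 is not a counted gene. The median log2 ratio of the detected muscle genes was 0.11, against -0.01 over all detected genes. The ratio of Mir486 was 0.587. Of the detected muscle genes, the cardiac miRNAs in myosin genes had ratios of 1.07 (Mir208a), 1.08 (Mir208b) and 1.16 (Mir499). Mir133b and Mir133a-1 were above 1 as well, at 1.63 and 3.36. Mir206, at 0.741, and Mir1a-1, at 0.499 on 3 counts in replicate 2, were below 1, as was Mir486. Which cells gave the reads of Mir486 was not tested.

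Leukocyte miRNAs were read at levels on both sides of Mir144. Mir223, a myeloid miRNA, was lower in replicate 2 at the adjusted p with no fold minimum, with 218 CPM against 255 CPM in replicate 1. Mir150, of mature lymphocytes, was higher in replicate 2, at 19.8 CPM against 12.7 CPM. By the same rule 15.0% of detected genes were lower in replicate 2 and 14.3% higher. Mir155 stood at 129 and 128 CPM and Mir146, the gene of miR-146a, at 22.8 and 26.0 CPM, and neither passed. Mir142b had 0 and 1 counts and was not detected. Mir142, the remaining miRNA of this list, is not a counted gene. The strand opposite to Mir142b, where Mir142 lies, held 2074 CPM in replicate 2, against 2417 CPM in replicate 1, above Mir451a in both. With that strand the list summed to 2463 CPM in replicate 2 and 2838 CPM in replicate 1, against 1036 and 1084 CPM for the 3 erythroid genes. Endothelial Mir126a, at 84700 and 79505 CPM, was far more abundant than any of them.

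Other miRNAs known to act in red cell formation were described from a list of 10, of which 9 are counted genes and all 9 were detected; Mir191 is not a counted gene. Without a fold minimum 2 of them were lower in replicate 2, against 15.0% of detected genes, and 3 were higher, against 14.3%. The other 4 did not pass, and 0 passed with the 2-fold minimum, which 2.63% of detected genes met. The median log2 ratio was 0.01. Mir15a and Mir16-1, which share a locus and rise as erythroid cells mature, stood at 3656 and 1897 CPM in replicate 2 and at 3528 and 2113 CPM in replicate 1. The mature miR-16 occurs at more than 1 locus, so the count of Mir16-1 is uncertain. Mir210, the hypoxia-induced miRNA, had 1156 CPM in replicate 2 against 1084 CPM in replicate 1. All 3 exceeded Mir451a in both libraries, and they are expressed in many cell types besides red cells.

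Mir221 and Mir222, which act on the receptor Kit and decline as red cells form, were low. Mir221 had 25.3 and 31.6 CPM and Mir222 13.4 and 15.1 CPM in replicates 2 and 1, below all 3 erythroid genes, and neither passed the library test. Mir24-2 stood at 317 and 308 CPM and did not pass; its mature sequence also occurs at another locus. Mir223, Mir150 and Mir155 are on this list as well, with the values given above.

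**Figure D5:**
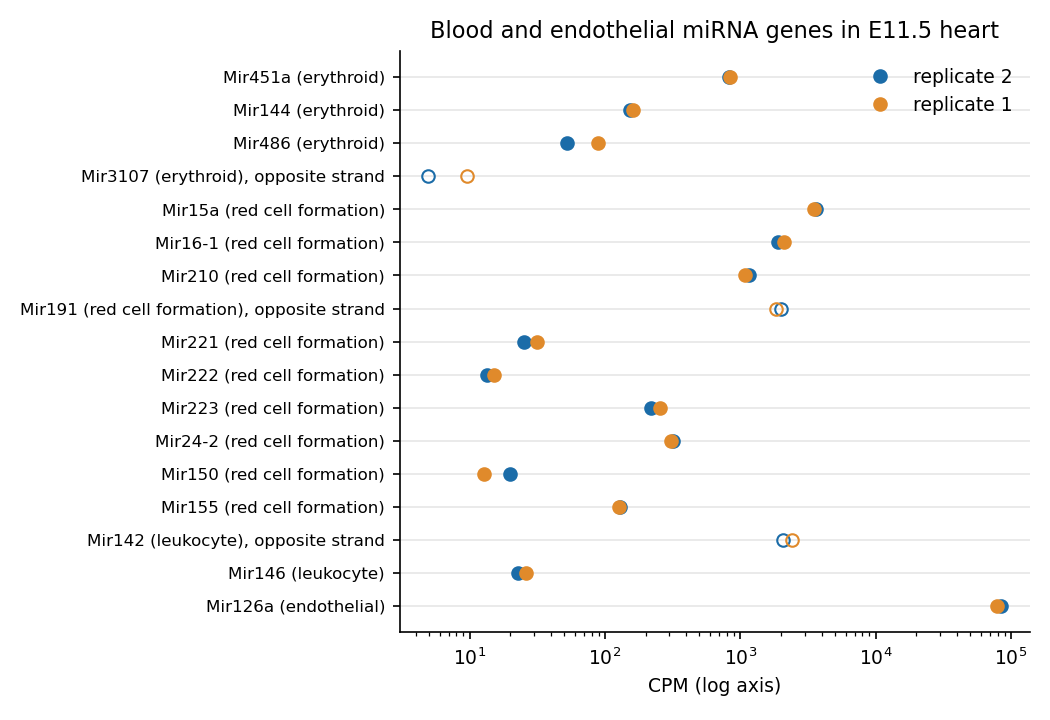
CPM (log axis) in replicates 2 and 1 of the erythroid, red cell formation, leukocyte and endothelial lists, with open circles for miRNAs read on the strand opposite to a counted gene and filled circles for own-strand counts. Genes with fewer than 3 counts in both libraries are left out. Mir486, Mir3107 and Mir150 show the widest gaps between the libraries, and Mir451a (829 and 835 CPM) sits between Mir210 and Mir24-2.

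The detected genes nearest in level to each member were found by the distance of log2(CPM + 1) over the 2 libraries. For Mir451a these were Mir134, Mir467c and Mir450b, at 855, 776 and 846 CPM in replicate 2 and 855, 844 and 779 CPM in replicate 1. For Mir144 they were Mir679, Mir770 and Mir485, at 160, 147 and 151 CPM in replicate 2 and 158, 160 and 171 CPM in replicate 1. For Mir486 they were Mir378c, Mir7j and Mir375, at 51.1, 59.0 and 48.6 CPM in replicate 2 and 76.1, 73.5 and 112 CPM in replicate 1. All 3 neighbours of Mir486 were also lower in replicate 2, which the choice by level in both libraries makes likely. With 2 libraries, this likeness is of level alone.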

How the data were processed

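Per the labels, small RNAs under 30 nt from 2 heart libraries of 1 group were sequenced. The deposited values are raw read counts for miRNA genes, which the authors made on mm10 with GENCODE M4, per the accompanying notes. Of the aligner and the counter the sources used here say nothing. The 3 unlabelled count columns were taken, from their sums, as both strands, own strand and opposite strand. The 4 summary rows stayed out of totals and tests.

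Members and lists were chosen with earlier results of these data known, and the epithelial and the liver, gut and pancreas lists after the values were seen. The text names the members, all list genes, the 3 detected genes nearest each member in level and miRNA genes within 10 kb. Symbols came from GENCODE M21 (1894 of 1973 IDs matched). A read spans a mature miRNA, so counts were not divided by gene length. Counts were scaled to CPM, with exact 95% Clopper-Pearson intervals (scipy 1.17.1), covering counting error; a count of 0 was limited by 3 counts. Libraries were compared with an exact binomial test, checked on simulated data. The simulated counts held counting error alone, so the check does not cover a wider spread between libraries. With 2 libraries no p across replicates was computed. Scaling used edgeR 4.0.16 and DESeq2 1.42.0; folds used RNAfold 2.7.2. The genome was not used here, so mature sequences were searched in RefSeq hairpins only.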

Additional observations from a re-analysis of the deposited data

Results flagged for a closer look

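Strands that the own-strand comparisons do not use held more reads than a count of 0 would allow for. Mir142, a miRNA of blood cell lineages, lies opposite to Mir142b, and that strand had a mean of 2245 CPM, with 2074 CPM in replicate 2 against 2417 CPM in replicate 1. Mir191, which is known to affect the loss of the nucleus in maturing red cells, lies opposite to Gm24083, and that strand held 2009 and 1829 CPM, a mean of 1919 CPM. Both exceeded Mir451a in both libraries.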

How the results depend on the processing

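Of 65 alternative values for 13 results, 54 kept their direction and call or moved by less than the SD. With both-strand counts the mean level was 794 CPM for Mir451a and 150 CPM for Mir144. Per 1000000 mapped reads the mean levels were 454 for Mir451a, 85.5 for Mir144, 38.2 for Mir486 and 3.89 for its opposite strand, since the divisor is larger. On that scale Mir451a had 473 in replicate 2 against 434 in replicate 1, a wider gap than in CPM. No interval was computed on it, so the overlap of the Mir451a intervals holds for CPM only. The genes called between the libraries numbered 11, against 7 with a minimum of 10 CPM and 4 with edgeR's exact test. The log2 ratio of Mir451a between the libraries, -0.01, turned to 0.0056 with TMM scaling, 0.0032 with DESeq2 size factors and 0.0056 with edgeR's exact test, a test added after the data were seen, and passed no test. Leaving out either replicate left the fixed ratios on the same side of equality. Mir486 rests on 106 counts in replicate 2. No paired analysis was possible because there is 1 group.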

Other observations

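Mir486 was set beside the 69 other detected genes whose mean CPM was within 2-fold of its own, a window chosen after its values were seen. Of these, 3 had a lower ratio of replicate 2 over replicate 1, namely Mir375, Mir6240 and Mir6538, with log2 ratios of -1.21, -3.04 and -2.62, against -0.77 for Mir486. The median of the 69 was -0.09. At the adjusted p with no fold minimum (exact binomial), 10 of the 69 were lower in replicate 2 and 6 were higher. Over all 419 detected genes, 63 (15.0%) were lower and 60 (14.3%) higher by this rule. The shares of unmapped reads, 27.5% in replicate 2 and 38.4% in replicate 1, also differed between the libraries, and their part in the lower Mir486 was not tested.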
